A study of Mus musculus with 6 samples.

Results

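CDKN1C, CCND3, H2AZ1 and TOB2 are 4 genes that brake, drive or accompany the exit of cells from the cell cycle, and their RNA was compared between a myoblast clone labelled MyoD-silenced and its control. They were chosen by gene symbol among genes of cell cycle exit and proliferation on a muscle array, with earlier results of these data known. Other cell cycle genes were also measured. The chosen genes make up 4 of 1521 named genes and 8 of 5376 spots, with 1 probe spotted in duplicate for each gene. The cells were C2C12, a mouse myoblast line of C3H origin that leaves the cell cycle and fuses into myotubes when serum is lowered. The clone, MyoD(-)cl.A8, was made by transfecting C2C12 with the mouse MyoD transcript in antisense orientation in the expression vector pcDNA 3.0 and by selection with G-418, and the control was labelled only as C2C12 control cells. Both were grown in medium with fetal bovine serum, moved to medium with less serum, from horse, and taken at days 1, 3 and 6 of differentiation. Each day had 2 two-colour arrays of clone against control with the dyes exchanged, replicate A with the clone in Cy5 and replicate B with the clone in Cy3. This made 6 arrays. A day's 2 arrays compared the same RNA types and count as a single replicate (n = 3 days), and 1 clone stood for the silencing.

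Withdrawal from the cell cycle precedes muscle differentiation, and MyoD, the transcription factor that sets the muscle fate of these cells, takes part in both. D-type cyclins activate the cyclin-dependent kinases that inactivate the retinoblastoma protein and so admit cells to DNA replication, and inhibitors of the CIP/KIP family, to which CDKN1C belongs, bind and block such kinases. TOB proteins are antiproliferative factors that bring the CCR4-NOT deadenylase to messenger RNAs, and H2A.Z is a histone variant placed in the nucleosomes around transcription start sites.

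Each value is a deposited score for the difference between clone and control in 1 spot or 1 gene, not an expression level. The scale, centring and direction of the scores are not stated, so no fold changes are given. A positive score is taken as higher in the clone, which is likely because Test is the label of the clone and Reference that of the control. The 6 arrays had medians of -0.07 to 0.03 over the 2466 features (1521 genes and 945 probes without a gene name) and SDs of 1.41 to 1.62 over spots. Arrays of a day correlated across features at 0.16 to 0.21 and arrays of different days at -0.08 to 0.12, and features are not independent replicates. Signal over background was not analysed here, and precision is limited by the small number of arrays. The array carried human probes, and which mouse RNA each probe bound was not tested. Because the scores are differences, the presence of muscle markers in these cells cannot be read from them. In bulk RNA, fewer cells of a type and less RNA per cell cannot be told apart. P-values measure only how these samples spread, and that spread may be technical.

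MYOD1, the silenced gene, scored 0.41 and -0.36 on day 1, 1.11 and -1.03 on day 3, and 0.50 and 0.26 on day 6, replicate A given first, so the probe gave no check of the labels and the clone is named here as labelled. The other myogenic regulators measured were MYF6 at a mean of 0.14 over the days, CSRP3 at -0.14 and MEF2D at -0.93, and limma called 0 of these 4 genes in any comparison, with 2 at an unadjusted p under 0.05 in at least 1, against 718 of 2466 features, or 29.1%.

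CDKN1C, the CIP/KIP kinase inhibitor also known as p57, is transcribed mainly from the maternal chromosome and is required together with its relative CDKN1A for normal muscle formation in mice. Its scores were -6.97 and -8.53 on day 1, replicate A given first. They were 1.80 and -0.58 on day 3, and 1.76 and -0.54 on day 6. The gene was far lower in the clone on both arrays of day 1, and on the later days its 2 arrays lay on either side of 0, so no array of day 3 or 6 came near those of day 1.

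**Figure D1:**
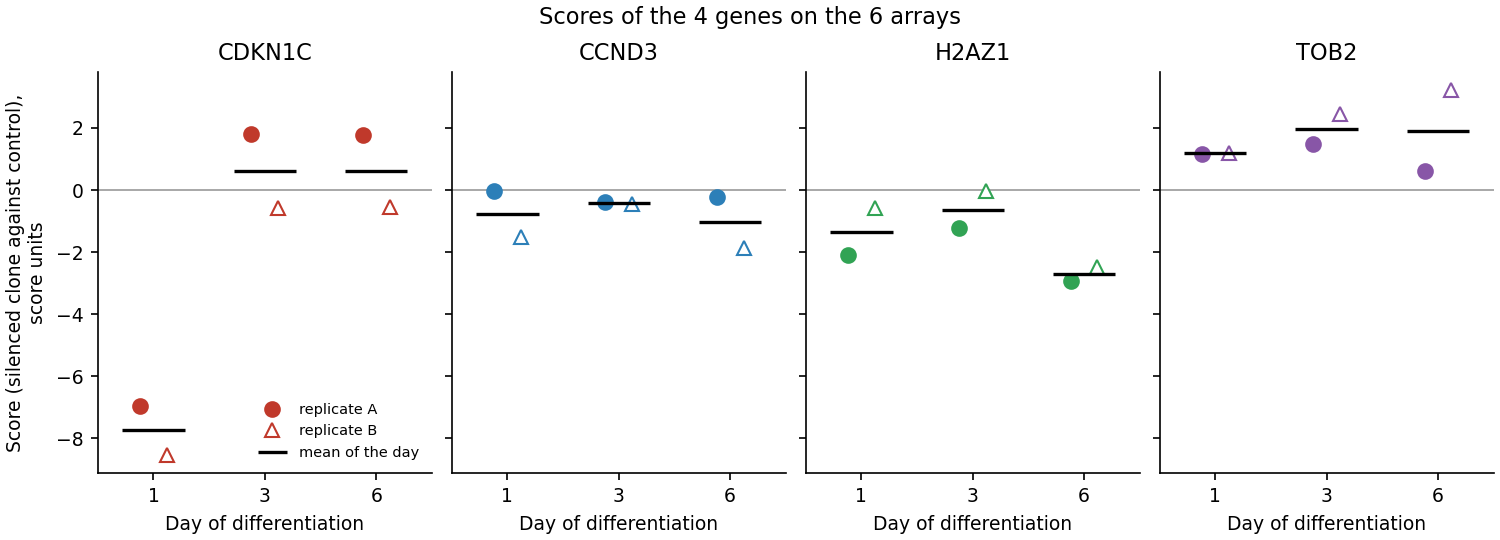
Score of clone against control (vertical axis, score units) for each of the 4 genes by day of differentiation. Filled circles are replicate A with the clone in Cy5, open triangles are replicate B with the clone in Cy3, and bars are day means; CDKN1C lies at -6.97 and -8.53 on day 1 and between -0.58 and 1.80 afterwards, CCND3 and H2AZ1 lie below 0 on 6 of 6 arrays, and TOB2 lies above 0 on 6 of 6.

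In the plot of scores by array, the day 1 values of CDKN1C stand apart from every other value of the 4 genes. Among the 2466 features CDKN1C was the lowest on each array of day 1. The next lowest feature scored -3.90 on replicate A and -4.53 on replicate B. The rank of the gene moved to 130th from the highest on replicate A of day 3 and 172nd from the highest on replicate A of day 6, while on the B arrays of those days it was 702nd and 794th from the lowest. On the late B arrays CDKN1C thus lay among most features, while on the A arrays of days 3 and 6 it lay at percentiles 94.8 and 93.1.

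**Figure D2:**
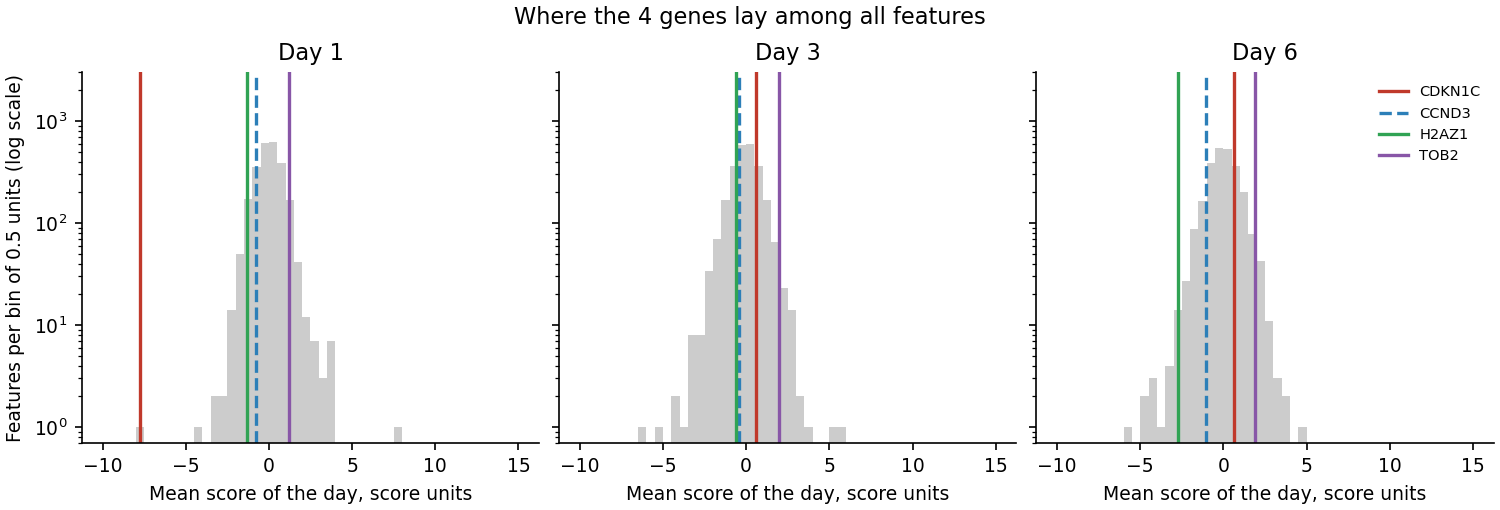
Distribution of the day means of all 2466 features on days 1, 3 and 6 (horizontal axis, score in bins of 0.5 units; vertical axis, number of features on a log scale), with lines at the 4 genes. CDKN1C is at -7.75 on day 1, below the next lowest feature at -4.21, and at 0.61 on day 3 and day 6; H2AZ1 at -2.70 on day 6 is the 18th lowest.

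The histogram of day means shows the same gap on the averaged scale. CDKN1C had a day 1 mean of -7.75 (SE 0.77, 95% confidence interval -9.40 to -6.10), and the limma fit of the 6 arrays gave an adjusted p of 0.000123, with only the spread between dye-swapped arrays as error. It was 1 of 6 features called on day 1, which is 0.243% of those tested. The series title lists Cdkn1c among its MyoD-dependent genes, so this call is not independent evidence of its direction. CDKN1C was also 1 of 7 features, or 0.284%, that scored at least 2 units lower on both arrays of day 1. With replicate A of day 1 left out, the remaining array gave -8.53, and with replicate B left out it gave -6.97. Neither fit called the gene, but each leaves day 1 with 1 array and a larger SE of 1.14. A lost call therefore cannot be told from lost precision.

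The 2 spots of the CDKN1C probe gave the same picture on day 1. The first spot had deposited scores of -6.42 on replicate A and -8.39 on replicate B, and the second spot had -7.51 and -8.63. The spots differed by 1.09 and 0.242, against median differences of 1.17 and 1.06 over all probes. The 10 neighbouring probes were every second probe in array order on either side. They had medians of -0.32 and -0.62 on these arrays and reached down to -1.42 and -1.30. The 2 adjacent probes, left out of that set, scored 0.67 and -1.76 on replicate A and 0.38 and 1.37 on replicate B. The low score was thus not shared by the probes near it in this order. Positions on the slide were not used, so a local effect there was not tested. On day 6 the spots gave 0.75 and 2.63 on replicate A and 0.23 and -1.27 on replicate B, which lie on both sides of 0.

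**Figure D3:**
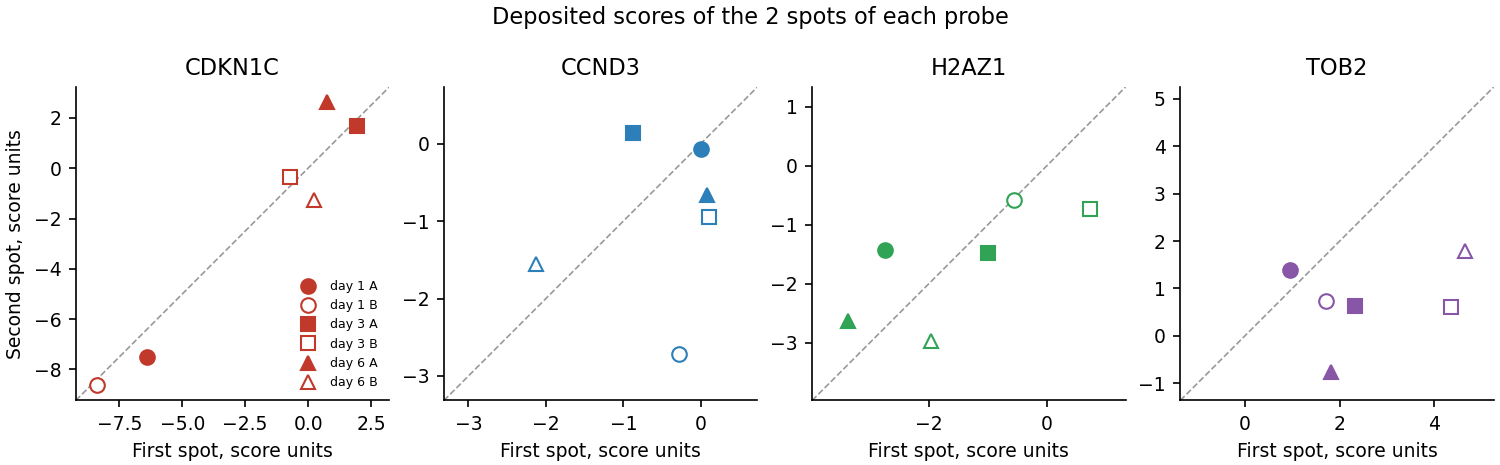
Deposited score of the second spot (vertical axis) against the first spot (horizontal axis) for each of the 4 probes on 6 arrays, in score units. Shapes mark days, filled symbols mark replicate A, and the dashed line is equality; the day 1 points of CDKN1C lie between -6.42 and -8.63 on both spots, and TOB2 has 4.35 against 0.61 on replicate B of day 3.

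The plot of duplicate spots places CDKN1C close to the line of equality on day 1 and TOB2 away from it on its highest arrays. Replicate A scored above replicate B for CDKN1C on each of the 3 days, by 0.78, 1.19 and 1.15 on either side of the day means of days 1, 3 and 6. Averaged over the days, the A arrays gave -1.14 and the B arrays -3.21. The part of dye orientation in the late scores was not tested.

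The difference between days was tested for the same gene, with only the spread between dye-swapped arrays as error. A day's 2 arrays count as 1 replicate, so no spread between replicates of a day enters these intervals and p-values. Each score is clone against control, so a change in the clone and a change in the control cannot be told apart. The score of CDKN1C was 8.36 units higher on day 3 than on day 1 (95% confidence interval 6.03 to 10.7, limma adjusted p = 0.00375). It was 8.36 units higher on day 6 than on day 1 (6.03 to 10.7, limma adjusted p = 0.00125). These were 1 of 4 features (0.162%) and 1 of 9 features (0.365%) called in those contrasts, which share the day 1 arrays. The gene was chosen with earlier results of these data known, so these calls are not independent evidence. Day 6 and day 3 differed by -0.0003 (95% confidence interval -2.33 to 2.33), in a contrast that called 1 feature, or 0.0406%. The low score of CDKN1C was thus seen on day 1 alone. On day 3 and day 6 the means of 0.61 had intervals of -1.04 to 2.26, with adjusted p-values of 0.899 and 0.822.

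Neither of these contrasts was called with an array of day 1 left out, nor the first with replicate A of day 3 left out. Such a fit leaves a day with 1 array, so a lost call cannot be told from lost precision. The contrast itself then lay between 7.17 and 9.55 for day 3 and between 7.21 and 9.51 for day 6, over the arrays left out. Over the 3 days CDKN1C had a mean of -2.18 ± 4.83 (SD, n = 3 days), which limma did not call (adjusted p = 0.731). That mean rests on day 1, since it was 0.61 without it.

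CCND3, cyclin D3, is the D-type cyclin that is known to rise as myoblasts differentiate and to stay bound to the retinoblastoma protein in myotubes. Its scores were -0.04 and -1.51 on day 1, -0.37 and -0.45 on day 3, and -0.22 and -1.86 on day 6, replicate A given first. All 6 arrays were below 0, with the B arrays of days 1 and 6 the lowest. Of the features tested, 71, or 2.88%, were below 0 on all 6 arrays, so this sign pattern is shared by many others.

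The mean of CCND3 over the days was -0.74 ± 0.31 (SD, n = 3 days; 95% confidence interval -1.66 to 0.17), and limma did not call it (adjusted p = 0.803). It was -0.50 without replicate B of day 1 and -0.47 without replicate B of day 6. In that comparison 9 features were called, or 0.365%, 5 higher and 4 lower. Day means were -0.78, -0.41 and -1.04 for days 1, 3 and 6, with adjusted p-values of 0.909, 0.931 and 0.617 and the widest interval bound at -2.48. The A arrays averaged -0.21 and the B arrays -1.27. The second spot scored -2.72 on replicate B of day 1 where the first scored -0.28, and with the second spot alone CCND3 was below 0 on 4 of 6 arrays. The days could not be told apart for CCND3: the differences from day 1 were 0.36 on day 3 (95% confidence interval -1.67 to 2.40) and -0.26 on day 6 (-2.30 to 1.77).

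H2AZ1 encodes the main form of the histone variant H2A.Z, which unlike the replication-coupled histones is made throughout the cell cycle and is exchanged into nucleosomes by the SRCAP and TIP60 complexes. Its scores were -2.09 and -0.59 on day 1, -1.24 and -0.03 on day 3, and -2.93 and -2.48 on day 6, replicate A given first. Every array was below 0 after centring, and the 2 arrays of day 6 were the lowest of the 6. As deposited, without centring, 5 of 6 arrays were below 0, because replicate B of day 3 then lay at 0.0027.

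On day 6 H2AZ1 was 1 of 28 features, or 1.14%, at least 2 units lower on both arrays, and its mean of -2.70 (95% confidence interval -4.12 to -1.29) was the 18th lowest. The limma fit did not call it on day 6 (adjusted p = 0.121), where 7 features, or 0.284%, were called and all were lower. The day 1 mean was -1.34 (adjusted p = 0.781) and the day 3 mean was -0.64 (adjusted p = 0.861), in a fit that called 8 features, or 0.324%, on day 3. Day 6 minus day 3 was -2.07, with an interval of -4.07 to -0.07 and an adjusted p of 0.529. The difference between these days did not pass after adjustment.

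Over the 3 days H2AZ1 had a mean of -1.56 ± 1.05 (SD, n = 3 days; 95% confidence interval -2.56 to -0.56), the 45th smallest p of 2466, and did not pass (limma adjusted p = 0.240). The A arrays averaged -2.08 and the B arrays -1.03, the opposite order to CDKN1C and CCND3. The first spot scored -3.37 and -1.96 on day 6 and the second -2.62 and -2.97, so both spots carried the low day 6 value. The probe just before H2AZ1 in array order was also low, at -2.39 and -2.17 on replicates A and B of day 6. The probe just after it scored 0.56 and 1.17. The 10 neighbouring probes, which leave out these adjacent probes, had medians of -0.36 and 0.34 and reached down to -3.17 and -0.32. Whether a local effect on the slide lowered both H2AZ1 spots was not tested. Among the alternatives tried for the shared change, the mean of H2AZ1 lay between -2.02 and -0.99 and the adjusted p between 0.138 and 0.878.

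TOB2, a TOB protein that slows proliferation, was the one gene of the 4 that lay above 0 throughout. It scored 1.16 and 1.20 on day 1, 1.48 and 2.44 on day 3, and 0.60 and 3.21 on day 6, replicate A given first. All 6 arrays were above 0, as were those of 65 features, or 2.64%, and the 2 B arrays of days 3 and 6 were the highest. Its day means of 1.18, 1.96 and 1.90 ranked 153rd, 44th and 74th from the highest.

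The mean of TOB2 over the days was 1.68 ± 0.43 (SD, n = 3 days; 95% confidence interval 0.76 to 2.60). It had the 26th smallest p and was not called by limma (adjusted p = 0.121). Within days the adjusted p-values were 0.838, 0.330 and 0.281. The 2 spots of the probe disagreed: on replicate B of day 3 the first gave 4.35 and the second 0.61, a difference of 3.74 that was larger in 2.98% of probes. On replicate B of day 6 they gave 4.65 and 1.80, and on replicate A of day 6 they gave 1.83 and -0.77. With the first spot alone the mean was 2.28 with an adjusted p of 0.04995, and with the second alone it was 1.07 with an adjusted p of 0.685, so the side of the threshold depends on the spot. The A arrays averaged 1.08 and the B arrays 2.28.

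**Figure D4:**
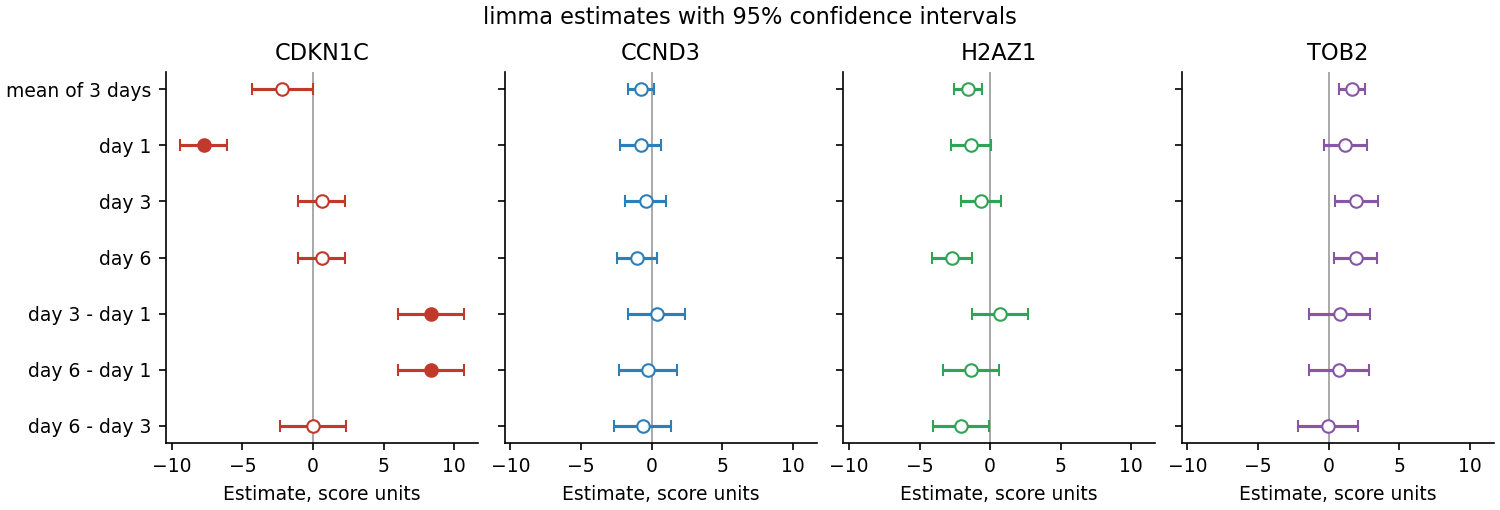
Estimates from limma with 95% confidence intervals (horizontal axis, score units) for the 4 genes: the change shared over 3 days, the change on each day and the differences between days. Filled symbols have an adjusted p under 0.05; these are CDKN1C on day 1 at -7.75 and its differences of 8.36 from day 1 to day 3 and to day 6.

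The plot of estimates shows that only the 3 CDKN1C values on day 1 or against it passed. Of the other 3 genes, CCND3 had adjusted p-values between 0.617 and 0.967 over the 7 comparisons, H2AZ1 between 0.121 and 0.909, and TOB2 between 0.121 and 0.992. The 9 differences between days of these 3 genes had adjusted p-values of 0.529 to 0.992. These intervals were wide, so a failure to pass does not show that the days were alike.

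The table of RefSeq start windows used here held 3 of the 4 mouse genes, with 4 starts in all, and Cdkn1c was not among them. MyoD and its E-protein partners bind E-boxes of the form CANNTG. The bases upstream of H2az1 and Tob2 are shown because these genes lay on opposite sides of 0 on 6 of 6 arrays after centring. CCND3 was also below 0 on 6 of 6 arrays, and the windows of its 2 starts are not printed. Sequences are from RefSeq for build GRCm38.p6, 250 bases up to the start in the direction of the gene, 5′ to 3′. H2az1 is on the plus strand at chr3:137864237-137864486 and Tob2 on the minus strand at chr15:81858327-81858576, and capitals mark CANNTG.
H2az1: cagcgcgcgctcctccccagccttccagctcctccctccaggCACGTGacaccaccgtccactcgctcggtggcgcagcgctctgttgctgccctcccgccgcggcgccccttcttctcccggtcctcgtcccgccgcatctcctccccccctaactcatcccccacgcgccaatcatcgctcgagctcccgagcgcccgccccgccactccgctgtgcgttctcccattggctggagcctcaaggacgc
Tob2: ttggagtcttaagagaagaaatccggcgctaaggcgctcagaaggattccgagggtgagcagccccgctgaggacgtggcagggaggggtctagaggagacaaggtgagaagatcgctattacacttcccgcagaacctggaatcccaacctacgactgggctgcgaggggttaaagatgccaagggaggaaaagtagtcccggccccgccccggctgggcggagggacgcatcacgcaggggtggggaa
The H2az1 window held 1 match, CACGTG, which begins 208 bases before the start. The Tob2 window held 0 matches, and neither did the windows of the 2 Ccnd3 starts. CANNTG reads the same on both strands. It occurred in 21753 of 32851 start windows of this length, or 66.2%. A match describes these letters only, and whether MyoD binds the H2az1 match was not tested. A window with none says nothing of binding elsewhere.

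The other genes of the cell cycle were few on this array. Without the 4 genes, 7 lists of cell cycle genes had 31 measured members, of which 15 had a mean above 0 and 16 below, with a median of -0.09 against 0.0028 over all features. Limma called 0 of these 31 genes in any of the 7 comparisons, and 8 had an unadjusted p under 0.05 in at least 1 of them. For all 10 pathway lists without the 4 genes, 22 of 45 members were above 0, or 48.9%, against 50.3% of all features, and limma called 0 of 45, with 14 at an unadjusted p under 0.05 in at least 1 comparison. Over all features that share was 29.1%, against 25.8% of the 31 and 31.1% of the 45.

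**Figure D5:**
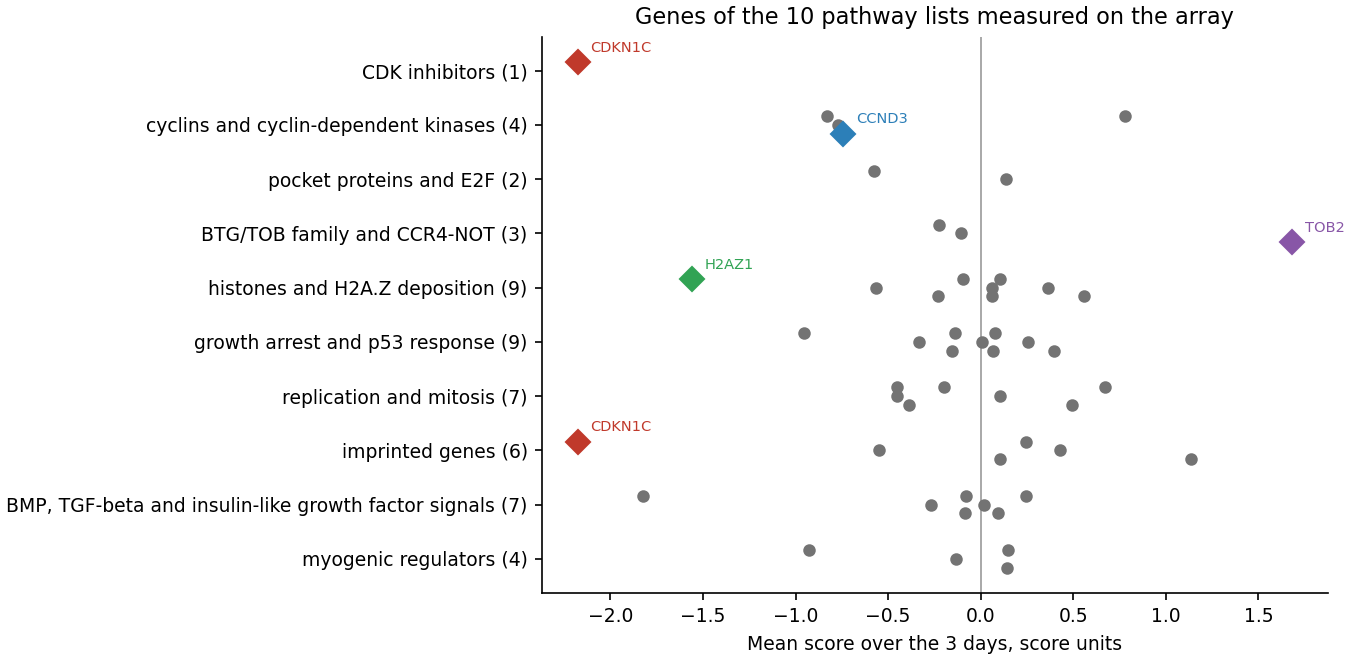
Mean score over 3 days (horizontal axis, score units) of every measured gene in each pathway list; dots are genes and diamonds are CDKN1C, CCND3, H2AZ1 and TOB2. Genes of each list lie on both sides of 0 wherever more than 1 was measured, and CDKN1C at -2.18 and IGFBP7 at -1.82 are the lowest.

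As the plot of pathway lists shows, no list with more than 1 measured gene lay to one side of 0. CDKN1C was the only kinase inhibitor measured. Of 4 cyclin and kinase genes measured, 3 were below 0: CCND3, CCNI (cyclin I) at -0.83 ± 0.69 (SD, n = 3 days) and WEE1. WEE1, the kinase that holds back entry into mitosis, was below 0 on 6 of 6 arrays with a mean of -0.77 ± 0.20 and an adjusted p of 0.782. The 2 spots of its probe differed, with means of -0.07 on the first and -1.50 on the second, and subtracting neighbouring probes gave -0.29. CDC37, a co-chaperone of kinases including CDK4, was at 0.78 ± 0.87, with 3.41 on replicate A of day 6. CDK2AP2, a kinase-associated gene outside the lists that was chosen after its values were seen, was at 0.65 ± 0.80.

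Downstream of the cyclins, E2F4, a repressive E2F that acts with the pocket proteins, had a mean of 0.14 ± 0.74. Its partner TFDP1 had a mean of -0.58 ± 2.15. TFDP1 scored -1.65 and -1.98 on days 1 and 3 and 1.89 on day 6, so its mean hides values of both signs, and its day 6 minus day 3 difference had an adjusted p of 0.285. In the replication and mitosis list 3 of 7 genes were above 0, from CUL1, a ubiquitin ligase scaffold, at 0.67 ± 0.72 to CDC16, a subunit of the anaphase-promoting complex, at -0.45 ± 0.23.

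Around TOB2, CNOT1, the scaffold of the CCR4-NOT deadenylase, had a mean of -0.11, and PABPC4, a poly(A)-binding protein, had -0.23 ± 0.85. Both means were within their spread of 0, with arrays of either sign, and CNOT1 was above 0 on 3 of 6 arrays. In the histone list 5 of 9 genes were above 0, with a median of 0.06. The replacement histone H3-3A scored 0.87 and 1.24 on days 1 and 3 and -1.91 on day 6 (limma adjusted p = 0.237 on day 6). H2AZ1 was also lowest on day 6, and whether these 2 genes changed together was not tested. The other histones measured were H1-2 at 0.06 ± 0.08 and H2AC18 at -0.26 ± 1.26. DMAP1, a subunit of the complexes that exchange H2A.Z, was the highest of the list at 0.56 ± 1.62, with 2.34 on day 3.

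Among growth arrest genes 5 of 9 were above 0, with PLK3, a stress-responsive kinase, highest at 0.40 ± 0.24 (0.76 and 0.03 without replicates A and B of day 3) and DDIT4, an inhibitor of mTORC1 signalling, lowest at -0.95 ± 0.87. Of the 7 genes of the growth factor list, IGFBP7, a secreted protein, was the lowest at -1.82 ± 1.11 and below 0 on 6 of 6 arrays (adjusted p = 0.125). Its 2 arrays of day 1 scored -3.15 and -3.02 (limma adjusted p = 0.083 on day 1), the day on which CDKN1C was also lowest. Whether IGFBP7 and CDKN1C changed together was not tested. IGF2R, the receptor that clears IGF2, was the highest of the growth factor list at 0.24 ± 0.54.

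CDKN1C lies in an imprinted gene cluster, and 5 other genes of the imprinted list were measured. In the mouse RefSeq order (GRCm38.p6), TSSC4, NAP1L4 and CD81 are on the chromosome of Cdkn1c with 2, 2 and 3 protein-coding genes in between, while GRB10 and IGF2R are elsewhere. TSSC4 scored -1.32 and -1.53 on day 1, 0.29 and -0.38 on day 3, and -0.24 and -0.11 on day 6. NAP1L4 scored -0.75 and 0.33 on day 1, and CD81, a tetraspanin, scored 8.24 and -0.35, so its mean of 1.14 ± 2.44 rests on 1 array. Of the 3 neighbours only TSSC4 was below 0 on both arrays of day 1, where its adjusted p was 0.781.

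The genes whose scores followed each member most closely were found by Pearson's r over the 6 arrays among 1520 other genes, as a description. The arrays of a day were counted as 1 replicate, so there are fewer independent points than arrays. How many genes would exceed 0.9 by chance was not tested, so no count above 0.9 is read as a result. For CDKN1C the 2 arrays of day 1 lay far from the others, so its r rests mainly on them. For CDKN1C the closest were GOT2 (r = 0.98), NADK (0.97) and TSSC4 (0.97), and 10 genes, or 0.658%, exceeded 0.9. GOT2, a mitochondrial aminotransferase, scored -1.46 and -1.59 on day 1 against 0.50 to 1.43 later, a range far narrower than that of CDKN1C. For CCND3 they were IMPA2 (0.97), MLXIP (0.96) and TNIP1 (0.94), and 9 genes, or 0.592%, exceeded 0.9.

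For H2AZ1, 11 genes, or 0.724%, exceeded 0.9. The closest were SLC25A51 (r = 0.98), RPL11 (0.98) and PSAP (0.96), and their means over the days were 0.04, 0.16 and -0.25. These means lay closer to 0 than that of H2AZ1. For TOB2 the closest were MCM3 (0.97), NDUFA13 (0.96) and ACTR10 (0.95), with 15 genes, or 0.987%, above 0.9. MCM3, a subunit of the replicative helicase, scored -1.18 on replicate B of day 1 and 1.58 on replicate B of day 6.

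Markers of differentiated muscle and of other cells are given beside these values. Of 14 muscle markers measured, 7 had means above 0 and 7 below, with day medians of -0.22, -0.14 and 0.51 on days 1, 3 and 6. MYH7, a slow myosin heavy chain, was lower on day 3 at -3.66 (limma adjusted p = 0.0145) and was the 1 muscle marker called, in a comparison that called 0.324% of features. In at least 1 comparison 5 of the 14 had an unadjusted p under 0.05, against 29.1% of all features. Of 10 measured markers of fibroblasts, smooth muscle, fat, endothelium and blood, 5 were above 0 and 5 below, with a median of -0.001. HBA1, an alpha globin, was above 0 on 6 of 6 arrays with a mean of 1.02, and limma called 0 of the 10, with 4 at an unadjusted p under 0.05 in at least 1 comparison, against the same 29.1%. Their part in the scores of the 4 genes was not tested.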

How the data were processed

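RNA of the clone and of the control was purified with Trizol, labelled with a tyramide kit and hybridised in both dye orientations, per the labels' protocols. The authors deposited 1 score per spot; its filter, normalization and scale are not stated in the labels or the file header. Duplicate spots were averaged to 2688 probes, probes of a gene to 2466 features, and each array centred on its median. Genes were named through the platform annotation given. Limma 3.58.1 (statmod 1.5.0, R 4.3.3) tested 3 day means against 0, and 6 arrays with days as coefficients, two-sided with Benjamini-Hochberg adjustment over all features and a threshold of 0.05. The design assumed scores, and the fits were run on simulated data with independent arrays and the same change on every day. That setting cannot test the fits where the arrays of a day depend on each other. Across features, deviations from the day mean correlated at -0.04 to -0.002 between arrays of a letter, and the main fits had no term for the letter. The letter is also the dye orientation, and these correlations cannot exclude a dye effect in single genes. Figures used Python 3.11.15 and matplotlib 3.10.9.

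The 4 genes, the 10 pathway lists and the markers were chosen with earlier results of these data known. Other genes named were the 3 most correlated with each of the 4; list genes with 1 sign on 6 arrays, called, or highest or lowest in a list; relatives of the 4; and myogenic regulators. Others are named for values chosen after they were seen.

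Alternatives were no centring, scale normalization, separate probes, 1 spot, a robust prior, 6 separate arrays, subtraction of the median of 10 neighbouring probes, a replicate block, other thresholds, and leaving out arrays or days.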

Additional observations from a re-analysis of the deposited data

Results flagged for a closer look

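The score of CDKN1C differed between days in contrasts of the days. It was 8.36 units higher on day 3 than on day 1 and 8.36 units higher on day 6 than on day 1, with the spread between dye-swapped arrays as the only error (limma adjusted p = 0.00375 and 0.00125). The 2 arrays of a day were counted as 1 replicate. Both contrasts share the day 1 arrays, and the gene was chosen with earlier results of these data known. They are therefore not independent evidence. Leaving out either array of day 1 ended both calls, and leaving out replicate A of day 3 ended the day 3 call, at 7.17. Such fits leave a day with 1 array and less precision.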

How the results depend on the processing

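CDKN1C on day 1 stayed below 0 under 14 of 14 alternatives and was called under 12. It was not called with 1 array left on day 1, at -8.53 without replicate A and -6.97 without replicate B. Its difference from day 1 ranged from 7.17 to 9.55 for day 3 and from 7.21 to 9.51 for day 6 over arrays left out. Its day 3 mean ranged from -0.58 to 1.80 and its day 6 mean from -0.54 to 1.76, and its shared mean was 0.61 without day 1. For the shared change, TOB2 was 2.28 on the first spot. From day 1 to day 6, the second spot gave 0.46 for CCND3 and -0.37 for TOB2, and arrays left out gave -1.08 to 0.56 and -0.58 to 2.03. CCND3, H2AZ1 and TOB2 kept their sign for the shared change under 18 of 18 alternatives.

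Counts of features called were 9 (shared), 6, 8 and 7 (days 1, 3 and 6), and 4, 9 and 1 (day 3 minus 1, 6 minus 1, 6 minus 3). Scale normalization gave 11 on day 1 and 4 on day 6. A robust prior gave 11 on day 1, 16 on day 3 and 12 for 6 minus 3. Separate probes gave 15 on day 3, 13 on day 6, 15 for 6 minus 1 and 4 for 6 minus 3. The first spot gave 16 (shared), 3 on day 3, 23 on day 6, and 2 and 3 for 3 minus 1 and 6 minus 3. The second spot gave 4 (shared), 3 on day 1, 0 on day 6, and 2, 3 and 0 for the contrasts. Subtracting neighbours gave 4 (shared), 19 on day 3, 17 on day 6, and 14 and 2 for 6 minus 1 and 6 minus 3. Leaving out days 1, 3 and 6 gave 29, 0 and 0 shared calls. Leaving out 1 array, with the lone array assumed to vary like the other days, gave 0 to 8 (shared), 0 to 10, 4 to 11 and 0 to 20 on days 1, 3 and 6, and 0 to 4, 0 to 28 and 1 to 7 for the contrasts. In the 13 limma fits with 0 calls, 109 to 242 features had an unadjusted p under 0.05.

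With the replicate block the counts were 5 (shared), 2, 4 and 1 on the days, and 2, 5 and 0 for the contrasts. CDKN1C kept its 3 calls with the block, and no call of the 4 genes changed.

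At least 2 units lower on both arrays were 7 features on day 1 and 28 on day 6. On day 1 this was 11 with scale normalization, 11 with separate probes, 18 and 14 on the first and second spot, 96, 23 and 3 at 1, 1.5 and 3 units, and 70 on either array alone. On day 6 it was 48 on the first spot, 136, 61 and 7 at the other thresholds, and 108 to 120 on 1 array.

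Of the list genes, CD81 was -0.19 on the first spot, -0.27 without day 1, and -0.30 to 2.57 over arrays left out. E2F4 was -0.28 with neighbours subtracted, -0.27 without day 1, and -0.17 to 0.45 over arrays. Without day 3, DMAP1 was -0.33, TFDP1 0.12 and PABPC4 0.13. Over arrays left out PABPC4 ranged from -0.58 to 0.12, IGF2R from -0.47 to 0.96 and MYOD1 from -0.21 to 0.50. Values that kept their sign but moved over 1.5 times with 1 array left out included CCNI at -0.47 and CDC37 at 0.24 (both without replicate A of day 6), MEF2D at -0.50 (same array), CDC16 at -0.19 and CUL1 at 0.43 (without replicates B and A of day 3). The causes were not tested. Without spot intensities, signal over background sets no stated limit here.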
